A study of Mus musculus with 12 samples.

Results

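The comparison of YAP overexpression with control in the forebrain and midbrain of mouse embryos at E11.5 rested on 6 of the 12 arrays of the series, 3 in each group, and covered all 17097 genes that had a probe set tied to a single gene symbol. Where a gene had several probe sets, the one brightest on average in these 6 arrays stood for it. Neither the genes tested nor their probe sets were chosen by how they moved, but the genes named were picked partly by their differences. Embryos of the overexpression group had the genotype TetO-YAP1;Nes-rtTA, and control embryos had Nes-rtTA alone. In the first of these alleles, doxycycline drives YAP1-S127A, a form in which the serine phosphorylated by the Lats kinases is replaced by alanine. The second expresses the transactivator rtTA from the Nestin promoter, described in the design as specific to neural progenitors. Where in the tissue the transgene was expressed was not measured here. Dams received food with 200 mg/kg of doxycycline from E7.5, a treatment described for the cross as a whole, so rtTA and doxycycline were common to both groups as far as the labels say. The genetic background was mixed. Forebrain and midbrain were dissected together, and 100 ng of total RNA was labelled for each array.

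YAP is a transcriptional co-activator that lacks a DNA-binding domain of its own and reaches DNA mainly through the TEAD factors. The Lats kinases of the Hippo pathway phosphorylate YAP, which holds it in the cytoplasm. Several Hippo components are themselves YAP target genes that feed back on it. At E11.5 the wall of the forebrain and midbrain consists largely of dividing neuroepithelial cells and radial glia joined at their apical side by adherens junctions, with the first neurons and intermediate progenitors forming outside them.

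Values are log2 intensities, so a difference of 1 is a 2-fold change. Array medians lay between 5.03 and 5.1, and 3 arrays a group limit the precision. Replicates correlated with r of 0.9942 to 0.9963 across genes, and arrays of different groups with 0.9892 to 0.9945. The labels number the arrays without saying whether they came from separate embryos. Xist was high in control replicate 2 (12.81) and YAP replicate 3 (12.3), where the Y-linked Eif2s3y was at background (3.86 and 3.87), and the other 4 arrays had the opposite pattern, so each group held RNA of both sexes. So p-values reflect only how much these arrays vary, which may be technical in part. The tissue labels were checked against regional markers. Otx2, a forebrain and midbrain gene, read 11.32 to 11.59 in controls and 11.46 to 11.59 with YAP, and all 10 hindbrain and spinal cord genes tested had means below 6 in both groups. Of the 12 forebrain and midbrain genes measured, 4 also had means below 6 in both groups (Emx1, En1, Lmx1b and Wnt1).

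Genes with an adjusted p under 0.05 were called, and only these are said to rise or fall (limma's moderated test, Benjamini-Hochberg adjustment over all 17097 genes). By that rule 375 genes were called, 2.19% of those tested. Of these, 179 rose (1.05%) and 196 fell (1.15%), so 47.7% of the calls were rises, against 58.7% when each array was centred on its own median. At least 2-fold changes made up 50 of the rises and 28 of the falls, and the smallest called difference was 0.38 on the log2 scale. The groups did not overlap for 3621 genes, 21.2% of those tested, and for all 375 called genes. Leaving out single arrays cost many calls. Of the 375 calls, 281 were lost without YAP replicate 1, 84 without YAP replicate 2 and 200 without YAP replicate 3. Without control replicate 1, control replicate 2 or control replicate 3 the losses were 282, 268 and 295. No called gene changed sign in these fits. There were 65 genes, 48 rises and 17 falls, that kept their call whichever array was left out, and they are called stable in what follows. Of the called genes, 211 had several probe sets, and for 44 of these the probe sets differed in sign. Genes named here to which this applies are Arrdc4, Hecw1, Slc2a3, Samd4, Wwc1, Smad3, Epha3, Gabrb2, Grik3, Vcan, Dnajc21, Ak4, Adamts9, Nr4a3, Kcna1, Pcdh9, Serpini1, Tubb6, Neurog1, Ypel2 and Slc39a3. Probe sets of other called genes shared a sign but differed in size, and some lay near 0. Examples of the weakest probe set are Ccnd3 (0.07), Wwc2 (0.11), Slc39a12 (0.04), Eif4ebp1 (0.17), Fzd7 (0.08), Adamts3 (0.23), Scn3a (-0.10) and Lhx6 (-0.07). Some called genes were dim, with means below 6 in both groups, among them Gad2, Grik3, Gbx2, Lhx6, Esrp1, Kcne3, Kcna1, Klf15, Stc2, Matn3 and Krt19. Lists of genes by family or function are described by their counts and medians, to be read against these shares and against the median of all genes, -0.01.

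**Figure D1:**
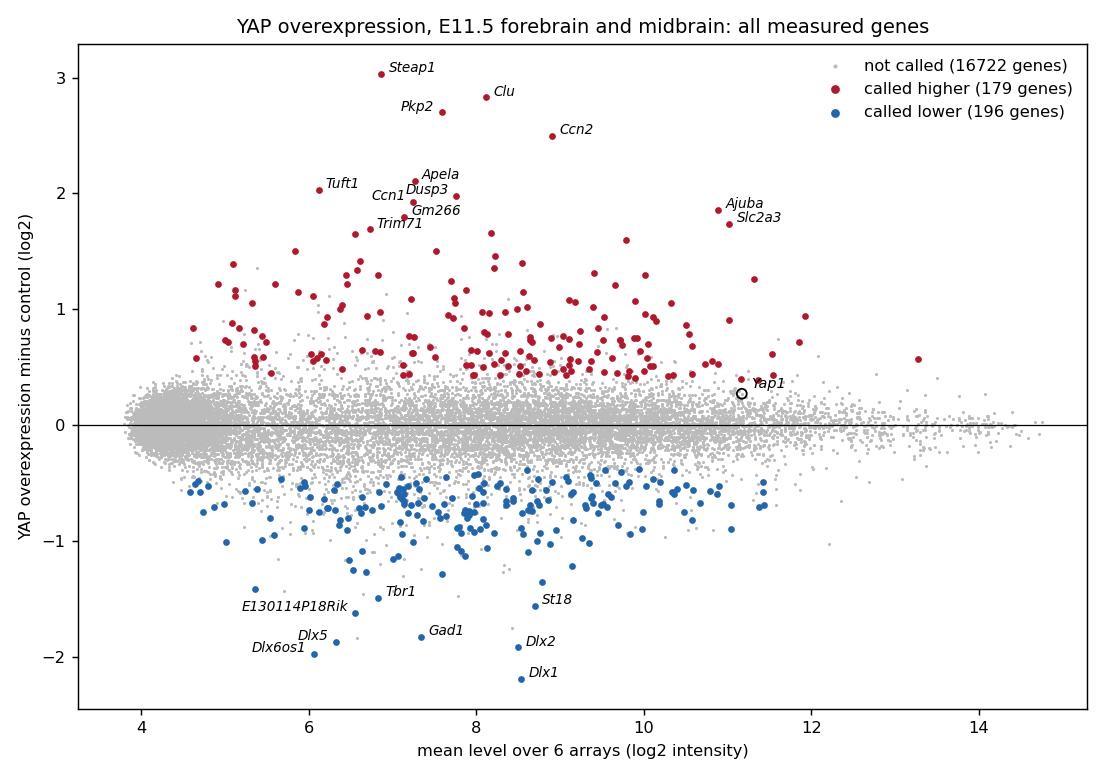
Mean log2 intensity over the 6 arrays (horizontal) against the log2 difference of YAP overexpression minus control (vertical), 1 point per gene for 17097 genes. The 179 called rises (red) reach 3.03 for Steap1, the 196 called falls (blue) reach -2.19 for Dlx1, and Yap1 (open circle) lies at 0.27 without a call.

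Sequence near these genes was examined in promoter windows only, and binding of YAP or TEAD was not measured. TEAD factors bind the core GGAATG. On the opposite strand this core reads CATTCC. RefSeq promoter windows on GRCm38.p6, from 250 bases before to 50 bases after a start site, were found for 13514 of the 17097 genes. The core stood on either strand in 44 of 186 windows of called rises (23.7%), in 30 of 237 windows of called falls (12.7%) and in 2239 of all 16953 windows (13.2%). Among the 20 largest rises it stood in 6 of 13 windows, and among the 20 largest falls in 2 of 22. An AP-1 site (TGANTCA) was present in 3.76% of the windows of rises, 4.64% of those of falls and 6.46% of all. An E-box (CAGNTG), the letters bound by neurogenic bHLH factors, was present in 39.8%, 53.6% and 48.3%. The windows of rises were also richer in G and C (median 63.0%, against 60.0% for falls and 58.3% for all), so base composition differed together with the motif shares. The shares are descriptions of letters in a short window and were not tested. The 250 bases before the start of 4 genes that rose are shown because they hold 1, 2 or 3 cores and belong to different families described in what follows, a secreted protein, a LIM scaffold, a Hippo scaffold and a tropomyosin. Capitals mark the core or its reverse complement, and the sequences are from RefSeq on GRCm38.p6, 5′ to 3′ on the strand of the gene.
Ccn1 promoter, chr3:145649986-145650235, minus strand: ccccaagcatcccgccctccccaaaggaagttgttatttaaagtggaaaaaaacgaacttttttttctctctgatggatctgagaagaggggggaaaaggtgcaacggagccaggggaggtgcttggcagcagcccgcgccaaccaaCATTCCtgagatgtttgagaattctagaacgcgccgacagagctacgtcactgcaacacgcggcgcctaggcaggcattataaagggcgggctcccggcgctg
Ajuba promoter, chr14:54577662-54577911, minus strand: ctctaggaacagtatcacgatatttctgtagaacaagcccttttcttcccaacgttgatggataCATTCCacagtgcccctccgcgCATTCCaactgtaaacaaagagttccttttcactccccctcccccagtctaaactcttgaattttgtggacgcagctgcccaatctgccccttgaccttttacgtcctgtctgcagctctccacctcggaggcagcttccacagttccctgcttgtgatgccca
Wwc2 promoter, chr8:47990545-47990794, minus strand: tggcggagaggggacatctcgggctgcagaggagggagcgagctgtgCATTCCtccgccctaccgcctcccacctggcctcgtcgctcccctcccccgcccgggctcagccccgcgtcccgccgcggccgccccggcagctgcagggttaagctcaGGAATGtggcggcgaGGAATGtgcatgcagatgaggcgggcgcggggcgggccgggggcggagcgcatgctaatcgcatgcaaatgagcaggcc
Tpm1 promoter, chr9:67049214-67049463, minus strand: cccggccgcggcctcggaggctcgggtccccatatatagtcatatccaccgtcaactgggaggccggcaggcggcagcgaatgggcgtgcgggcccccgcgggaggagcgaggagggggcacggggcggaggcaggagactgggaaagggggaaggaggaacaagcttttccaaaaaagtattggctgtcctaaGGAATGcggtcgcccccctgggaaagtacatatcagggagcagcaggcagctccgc
The Ccn1 core begins 103 bases before the start site and the Tpm1 core 56 bases before it. The cores of Ajuba begin 186 and 164 bases before the start, and those of Wwc2 at 203, 94 and 79 bases.

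The probe set that stood for Yap1 showed a small difference that was not called. Yap1 read 11.07, 10.99 and 11.05 in controls and 11.35, 11.23 and 11.33 with YAP, a difference of 0.27 (SE 0.08, adjusted p = 0.139). The groups did not overlap. A second probe set of Yap1 gave 0.17. Whether either probe set matches the transgene's transcript was not tested, so these values do not measure the transgene.

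Secreted CCN proteins and Hippo components came first among the YAP-linked families. Ccn2, a matricellular growth factor, read 7.79, 8.04 and 7.13 in controls and 10.34, 10.17 and 9.96 with YAP, a 5.67-fold rise (log2 2.50, SE 0.22, adjusted p = 0.00246). Its relative Ccn1 read 6.09, 6.52 and 6.23 against 8.34, 8.20 and 8.10, a 3.82-fold rise (log2 1.93, SE 0.12, adjusted p = 0.00065). For both genes every YAP array lay more than 1.5 above every control array, and the other 4 CCN genes measured differed by no more than 0.1 in size. Of 26 Hippo kinases, scaffolds, angiomotins and TEAD or Vgll factors, 7 rose and none fell, with a median of 0.16.

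The Hippo members that rose were 5 scaffold or adaptor proteins, the phosphatase Ptpn14 and the DNA-binding partner Tead1. Ajuba, a LIM protein that binds Lats kinases, rose from 9.95, 9.98 and 9.94 to 11.97, 11.60 and 11.88 (log2 1.86, SE 0.11, adjusted p = 0.00046). Its relative Wtip rose by 0.84, and Ptpn14, a phosphatase that binds YAP, by 1.66. Wwc2 and Wwc1, Kibra-family scaffolds that activate Lats, rose by 1.02 and 0.84. Amotl2, an angiomotin that retains YAP at junctions, rose by 0.73. Tead1 rose by 0.55, while Tead2 (0.03), Tead3 (0.06) and Tead4 (-0.23) were not called. Among the kinases and their adaptors, Stk4 (-0.01), Sav1 (0.06), Lats1 (0.11), Mob1a (0.19), Mob1b (-0.17) and Nf2 (-0.05) were not called. Lats2 read 7.14, 6.63 and 6.29 in controls and 7.92, 7.69 and 7.35 with YAP, and its difference of 0.97 missed the threshold (adjusted p = 0.0735). The YAP paralogue Wwtr1 differed by 0.35 (adjusted p = 0.081) and Amot by 0.50 (adjusted p = 0.0944). Limd1 (0.09), Amotl1 (-0.01), Frmd6 (0.03), Vgll2 (0.48), Vgll3 (0.13) and Vgll4 (-0.29) were not called either. Ccn1, Ccn2, Ajuba, Ptpn14 and Wwc2 were stable. The other calls of this family were lost without at least 1 array, with adjusted p of up to 0.128 for Wwc1.

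The largest rises lay outside the classical Hippo genes. Steap1, a membrane protein of the Steap metalloreductase family, read 5.20, 5.59 and 5.26 in controls and 8.57, 8.52 and 8.04 with YAP, an 8.15-fold rise (log2 3.03, SE 0.16, adjusted p = 0.000368). Clu, which encodes the secreted chaperone clusterin, read 6.93, 6.85 and 6.32 against 9.47, 10.14 and 8.99, a 7.13-fold rise (log2 2.83, SE 0.28, adjusted p = 0.00366), and its 3 probe sets gave differences from 2.83 to 3.6. The desmosomal plaque protein Pkp2 read 6.04, 6.33 and 6.33 against 8.99, 8.85 and 8.97, a 6.51-fold rise (log2 2.70, SE 0.10, adjusted p = 7.46e-05), the smallest adjusted p of all genes. A second probe set of Pkp2 gave 0.14, so this rise rests on a probe set whose suffix marks possible matches to other transcripts. Apela, which encodes a peptide ligand of the apelin receptor, read 6.27, 6.19 and 6.17 against 8.58, 8.43 and 7.95, and its second probe set differed by 0.12. Tuft1, known from enamel and epithelial cells, read 5.24, 4.99 and 5.07 against 6.71, 7.82 and 6.86. In all 5 genes the groups were separated by more than the range within either group. Further rises of this rank were Gm266 (1.80), Samd4 (1.46), Lipg (1.42) and Rhbdf1 (1.40), an inactive rhomboid protein involved in EGF ligand processing. Other probe sets went as low as 0.16 for Gm266, -0.15 for Samd4 and 0.04 for Lipg. Tuft1, Samd4 and Lipg lost the call without at least 1 array (adjusted p of up to 0.0763, for Lipg), and the others named in this paragraph were stable.

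**Figure D2:**
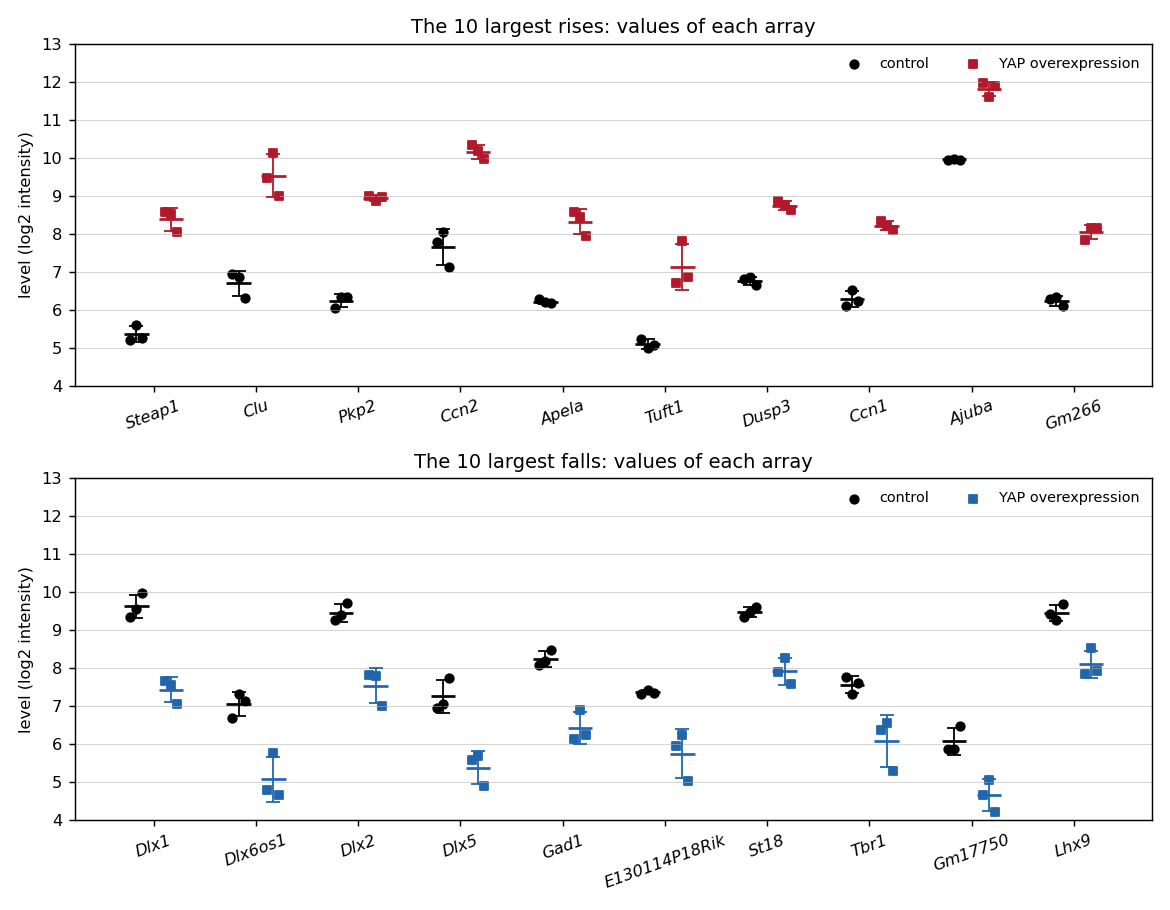
Log2 intensity of each array for the 10 largest rises (top) and the 10 largest falls (bottom), controls as black circles and YAP overexpression as coloured squares, with the mean and SD of 3 arrays. The 20 genes were picked from calls whose groups do not overlap, and groups do not overlap for 21.2% of all genes. The lowest values of Dlx2 and Tbr1 with YAP are those of replicate 3 (7.0 and 5.30).

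Junction and adhesion genes moved singly rather than as whole families. Shares called were 2.22% of tight and gap junction genes and 2.44% of keratins, near the 2.19% of all genes. They were 15.4% of desmosomal genes, 10.7% of immunoglobulin-domain genes, 7.69% of cadherins and catenins and 4.76% of protocadherins and Fat cadherins. Besides Pkp2, 1 of the other desmosomal genes rose (Pkp4, 0.51), so 2 of 13 were called. Cldn12, a claudin of tight junctions, read 9.44, 9.41 and 9.24 in controls and 10.63, 10.89 and 10.46 with YAP (log2 1.3, SE 0.12, adjusted p = 0.00305), and was the only called gene of 45 tight and gap junction genes. Cdh6, a classical cadherin, read 7.46, 7.22 and 7.18 against 8.58, 8.43 and 8.36 (log2 1.17, SE 0.11, adjusted p = 0.00257), while Cdh4 fell by 0.76, and the other 24 cadherins and catenins were not called. Pcdh9 and Pcdh17 fell by 0.90 and 0.83 among 42 protocadherins and Fat cadherins. Of 28 immunoglobulin-domain adhesion genes, Nectin2, which recruits afadin to adherens junctions, rose by 1.09, and the axonal proteins Cntn2 and Ntm fell by 0.89 and 0.73. Pkp2, Cldn12, Cdh6, Nectin2 and Krt19 were stable, and the remaining junction and adhesion calls lost significance without at least 1 array (adjusted p of up to 0.152, for Pcdh9). Krt19, a simple-epithelium keratin, was the only called gene of 41 keratins and stayed dim, at 4.20 ± 0.13 (SD, n = 3) in controls and 5.04 ± 0.09 with YAP. Markers of surface ectoderm and epithelium were near background. Of 13, 12 had means below 6 in both groups, 1 rose (Krt19) and 1 fell (Esrp1), and the log2 of their summed intensity was 8.79 to 9.05 in controls and 8.64 to 8.85 with YAP. The part of contaminating epithelium in these changes was not tested beyond that.

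Calls among matrix genes were in a few secreted proteins and proteoglycans, with 1 in the large structural families. Sparc, a collagen-binding matricellular protein, read 11.51, 11.47 and 11.37 in controls and 12.46, 12.64 and 12.07 with YAP (log2 0.94, SE 0.14, adjusted p = 0.0193). Matn3 rose by 0.59 and Smoc1 fell by 0.66 among the same 42 matrix glycoproteins. Adamts1 read 7.21, 7.16 and 6.87 against 8.45, 8.19 and 8.31, a 2.36-fold rise in a protease that cleaves versican (log2 1.24, SE 0.12, adjusted p = 0.00305). Adamts3 rose by 1.36 and Adamts9 by 0.52, Adamts20 fell by 0.80, and the other 58 of 62 metalloproteases and inhibitors were not called. The proteoglycan Vcan, versican, fell from 10.87, 10.81 and 10.88 to 10.23, 10.07 and 10 (log2 -0.75, SE 0.09, adjusted p = 0.00793), and Ptprz1 fell by 0.71. The 5 probe sets of Vcan ran from -0.75 to 0.26, so its fall rests on part of them. In the same list of 20, the heparan sulfate proteoglycans Gpc4 and Sdc4 rose by 1.07 and 0.65. Only Col18a1 was called among 42 collagens (0.42, a share of 2.38%, near that of all genes). None of 8 laminins or 22 integrins was called (1 and 2 higher and 1 and 0 lower at an unadjusted p under 0.05), and of 39 serpins only the neuronal Serpini1 was, with a fall of 1.05. Mesenchymal and meningeal markers, which could bring matrix genes, had no called member of 13, and their summed log2 intensity was 13.1 to 13.6 in controls and 13.14 to 13.24 with YAP. Adamts1 and Vcan were stable, and the other matrix calls were lost without at least 1 array (adjusted p of up to 0.145, for Matn3).

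Several actin-linked genes rose. Of 41 tropomyosins, actins and actin crosslinkers, 5 rose and 1 fell, with a median of 0.11 and 12 higher against 1 lower at an unadjusted p under 0.05. Pdlim1, which tethers alpha-actinin on stress fibres, read 9.10, 8.98 and 8.89 in controls and 10.79, 10.62 and 10.37 with YAP (log2 1.60, SE 0.12, adjusted p = 0.00122). Tpm1, a tropomyosin that coats actin filaments, read 10.86, 10.84 and 10.33 against 11.84, 12 and 11.97 (log2 1.26, SE 0.15, adjusted p = 0.00793). Csrp1 rose by 1.15, Vcl (vinculin) by 0.64 and Pdlim7 by 0.55. The fall was that of the neuronal Tagln3 (0.94 lower on the log2 scale). None of 45 myosins was called (4 higher and 3 lower unadjusted). Of 30 tubulins and microtubule-associated proteins, Tubb6 rose by 0.81, Mapre2 fell by 0.49 and the median was -0.18, and of 37 kinesins only Kif21b was called, 0.86 lower. Pdlim1 and Tpm1 were stable, and the other calls of this group were lost without at least 1 array, with adjusted p of up to 0.163 for Mapre2.

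**Figure D3:**
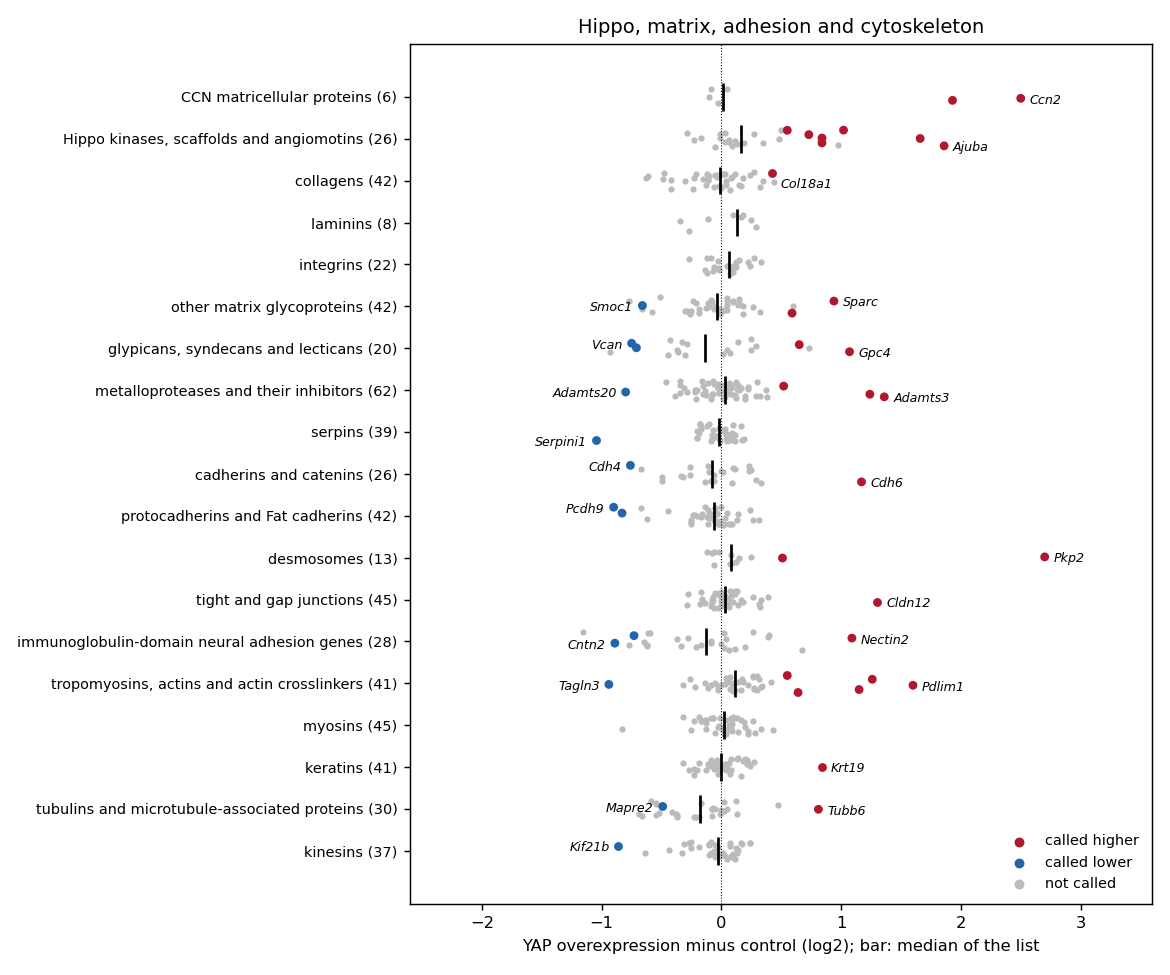
Log2 difference of YAP overexpression minus control for each member (point) of lists of Hippo, matrix, adhesion and cytoskeletal genes, with the number of members in brackets and the list's median as a bar. The highest rises of their lists include Ccn2 (2.50), Pkp2 (2.70) and Pdlim1 (1.60), while the list medians lie between -0.18 and 0.16.

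Growth factor pathways showed changes in single ligands, receptors and feedback genes. Bmp6 read 6.14, 5.93 and 5.64 in controls and 7.34, 7.16 and 7.23 with YAP (log2 1.34, SE 0.13, adjusted p = 0.0035), and Smad6, an inhibitory Smad, and Smad3 rose by 0.63 and 0.44, with no fall among 61 BMP, TGF-beta and activin genes. Wnt5a and the receptor Fzd7 rose by 0.75 and 0.63, and the other 53 Wnt genes were not called. Fgfbp3, which releases FGFs from heparan sulfate, rose by 1.31, and the FGF-responsive factor Etv1 fell by 0.67, out of 39 FGF genes. The ephrin receptor Epha2 read 5.78, 5.73 and 5.86 against 7.04, 7.32 and 6.91 (log2 1.3, SE 0.11, adjusted p = 0.00248), and Epha3 fell by 0.49, out of 20. Erbb2, a receptor of the EGF family, rose by 0.76, and with Apela it made 2 rises in a list of 35 genes of EGF, neuregulin, VEGF, PDGF, apelin and related growth factor signalling. Igfbp2, which binds insulin-like growth factors, rose by 0.72 and Igfbpl1 fell by 0.89, out of 16. None of 16 Hedgehog genes (4 higher, 1 lower unadjusted) or 16 retinoid genes (1 higher, 2 lower) was called.

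Dual-specificity phosphatases, which switch off MAP kinases, held 3 rises and no fall among 22 genes. Dusp3 read 6.80, 6.85 and 6.65 in controls and 8.85, 8.76 and 8.62 with YAP, a 3.94-fold rise (log2 1.98, SE 0.10, adjusted p = 0.000243). Dusp14 rose by 1.22 and Dusp16 by 0.69. The groups did not overlap for these 3, which holds for all 375 called genes and for 21.2% of all genes. Calls in other signalling and guidance lists were few. Sema6a fell by 0.55 among 31 semaphorins, plexins and neuropilins, and Rgs8 by 0.78 among 19 RGS genes. In a list of 29 Slit, Robo, netrin and related genes the median was -0.15, with 11 lower and 3 higher unadjusted. Its only call was Slitrk1, which fell by 1.09, so no Slit, Robo or netrin gene was called. No call was made among 64 adhesion and chemokine receptors (3 higher, 5 lower unadjusted), 28 TNF genes (3 and 0) or 52 interferon, STAT and SOCS genes (1 and 4). Bmp6, Epha2, Apela, Dusp3, Dusp14 and Dusp16 were stable, and the other signalling calls were lost without at least 1 array (adjusted p of up to 0.155, for Slitrk1).

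The largest falls were in transcription factors of the ventral forebrain. Dlx1, a homeobox gene of GABAergic progenitors, read 9.36, 9.56 and 9.97 in controls and 7.67, 7.57 and 7.07 with YAP, a 4.57-fold fall (log2 -2.19, SE 0.20, adjusted p = 0.00254). Dlx2 read 9.26, 9.39 and 9.72 against 7.83, 7.79 and 7.0, and Dlx5 read 6.95, 7.07 and 7.75 against 5.57, 5.68 and 4.90. With the cortical factor Emx2 (-0.68), 4 of 49 Dlx, Emx, Otx, Gsx and Nkx genes fell and none rose. The antisense transcript Dlx6os1 fell by 1.98. In bulk tissue, fewer cells of a type and less RNA per cell cannot be told apart, and the same holds for a different share of ventral tissue in the dissections. Lhx8, a marker of the most ventral telencephalon, varied between the control arrays themselves (6.28, 8.05 and 8.14, against 5.77, 5.58 and 5.60 with YAP), and its difference of -1.84 was not called (adjusted p = 0.0797).

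LIM-homeobox and LIM-only genes held 5 falls and no rise among 18, a share of 27.8%, with a median of -0.29. Lhx9, a factor of diencephalic and midbrain neurons, read 9.43, 9.27 and 9.68 against 7.85, 8.52 and 7.93 (log2 -1.36, SE 0.19, adjusted p = 0.0137). Lhx6 fell by 0.99, Lmo1 by 0.91, Lmo2 by 0.43, and Lhx2, a selector gene of the cortex and eye, by 0.69. Lhx1 read 9.46, 8.87 and 9.56 against 6.95, 8.69 and 7.0, so that YAP replicate 2 stood close to the controls, and it was not called (adjusted p = 0.0904). Dlx1 and Dlx2 were stable. Dlx5, Dlx6os1, Emx2, Lhx9, Lhx6, Lmo1, Lmo2 and Lhx2 lost their calls without at least 1 array, with adjusted p from 0.0527 for Lmo1 to 0.138 for Lmo2.

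Several factors of neuron formation fell. Of 35 T-box, Ebf, Myt1-family, Gata and Nfi genes, 7 fell and none rose (16 lower and 0 higher unadjusted). Eomes, the T-box factor of intermediate progenitors, read 9.85, 9.63 and 9.78 in controls and 8.72, 8.49 and 8.38 with YAP (log2 -1.22, SE 0.11, adjusted p = 0.00257). St18, a zinc-finger factor of postmitotic neurons related to Myt1, read 9.35, 9.49 and 9.61 against 7.90, 8.28 and 7.58 (log2 -1.56, SE 0.17, adjusted p = 0.00625), and Myt1 itself fell by 1.1. Tbr1, made by early glutamatergic neurons, fell by 1.49 (adjusted p = 0.0492), Bcl11b by 0.98, and the Cajal-Retzius cell genes Ebf2 and Ebf3 by 0.74 and 0.71. Among 35 neural bHLH genes, 6 fell and 1 rose. Hes1, a Notch effector that holds progenitors undifferentiated, rose by 0.60, from 8.43, 8.16 and 8.39 to 9.09, 8.93 and 8.75. Hey1, like Hes1 a Notch effector, went the other way and fell by 0.67. Neurod1 fell by 0.90, Hes6 by 0.67, Nhlh1 by 0.58 and Tcf4 by 0.53. The 6th, Neurog1 (-0.65), is named after its values were seen, since the rule for naming genes left it out. Eomes and St18 were stable, and the others lost the call without at least 1 array (adjusted p of up to 0.17, for Tbr1).

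Other factor families held few calls or none by number. Shares in the lists with calls were 6.9% (AP-1, Atf and Egr), 9.52% (Klf and Sp) and 8.57% (nuclear receptors), against 2.19% of all genes. Atf3, a stress-induced bZIP factor, read 5.07, 5.14 and 5.03 in controls and 6.81, 6.15 and 6.78 with YAP (log2 1.5, SE 0.17, adjusted p = 0.00735), and Mafk rose by 0.93, out of 29 AP-1, Atf and Egr genes. Klf15 and Klf6 rose by 0.73 and 0.62 among 21 Klf and Sp genes. Of 35 nuclear receptors, Nr4a3 and Nr2f6 rose by 1.11 and 0.44 and Nr4a2 fell by 0.63. No member was called among 19 Sox genes (median -0.15, 1 higher and 9 lower unadjusted), 14 POU and Onecut genes (median -0.2, 0 and 5), 36 forkhead genes (2 and 0), 11 Pax and Zic genes (0 and 1) or 34 Hox genes (1 and 0). The Sox genes with the highest levels, Sox4 and Sox11, had differences of -0.47 and -0.45 with adjusted p of 0.0724 and 0.0778. Atf3 and Mafk were stable, and the other calls had adjusted p of up to 0.163 (Nr4a2) without 1 array.

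Some neuronal effector genes also fell, among them genes of transmitter synthesis and transport, RNA binding and ion channels. Gad1, the main enzyme of GABA synthesis, read 8.09, 8.18 and 8.49 in controls and 6.13, 6.90 and 6.25 with YAP, a 3.55-fold fall (log2 -1.83, SE 0.20, adjusted p = 0.00693). The glutamate vesicle transporter Slc17a6 fell by 1.02, Gad2 by 0.75, the dopamine-synthesis enzyme Th by 0.72 and the neuropeptide gene Tac1 by 0.47, so 5 of 33 transmitter genes fell and none rose. Elavl4, a neuronal RNA-binding protein, read 10.96, 10.92 and 11.07 against 10.21, 10.26 and 10.02 (log2 -0.82, SE 0.09, adjusted p = 0.0077), and Elavl2 fell by 0.57, out of 19 (median -0.3). Scn3a fell by 1.13 among 33 sodium and calcium channel genes, Gabrb2 by 1.01 among 40 GABA, glycine and acetylcholine receptors, and Grik3 by 0.58 among 22 glutamate receptors. Potassium channels were mixed. Kcnn1 fell by 0.62, while Kcne3 (1.39) and Kcna1 (0.55) rose, out of 74. Of 30 growth cone and axon genes only Tagln3 was called, but 24 had negative differences, 19 of them with an unadjusted p under 0.05, with a median of -0.4. None of 52 synaptic release genes was called (14 lower and 2 higher unadjusted).

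Markers of intermediate progenitors and neurons, taken as a list, had 6 falls and no rise among 16 and a median of -0.67. The falls include Gadd45g (-0.62) and Btg2 (-0.76) beside the genes already named. The log2 of their summed intensity was 14.25 to 14.53 in controls and 13.6 to 14.01 with YAP, so the groups did not overlap, which is also the case for 21.2% of all genes. Neural progenitor markers gave 15.25 to 15.32 and 15.18 to 15.41, with 1 rise (Hes1) among 15. These lists share genes with the families above and are no separate evidence. Gad1 and Elavl4 were stable, and the other neuronal calls were lost without at least 1 array (adjusted p of up to 0.173, for Th).

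**Figure D4:**
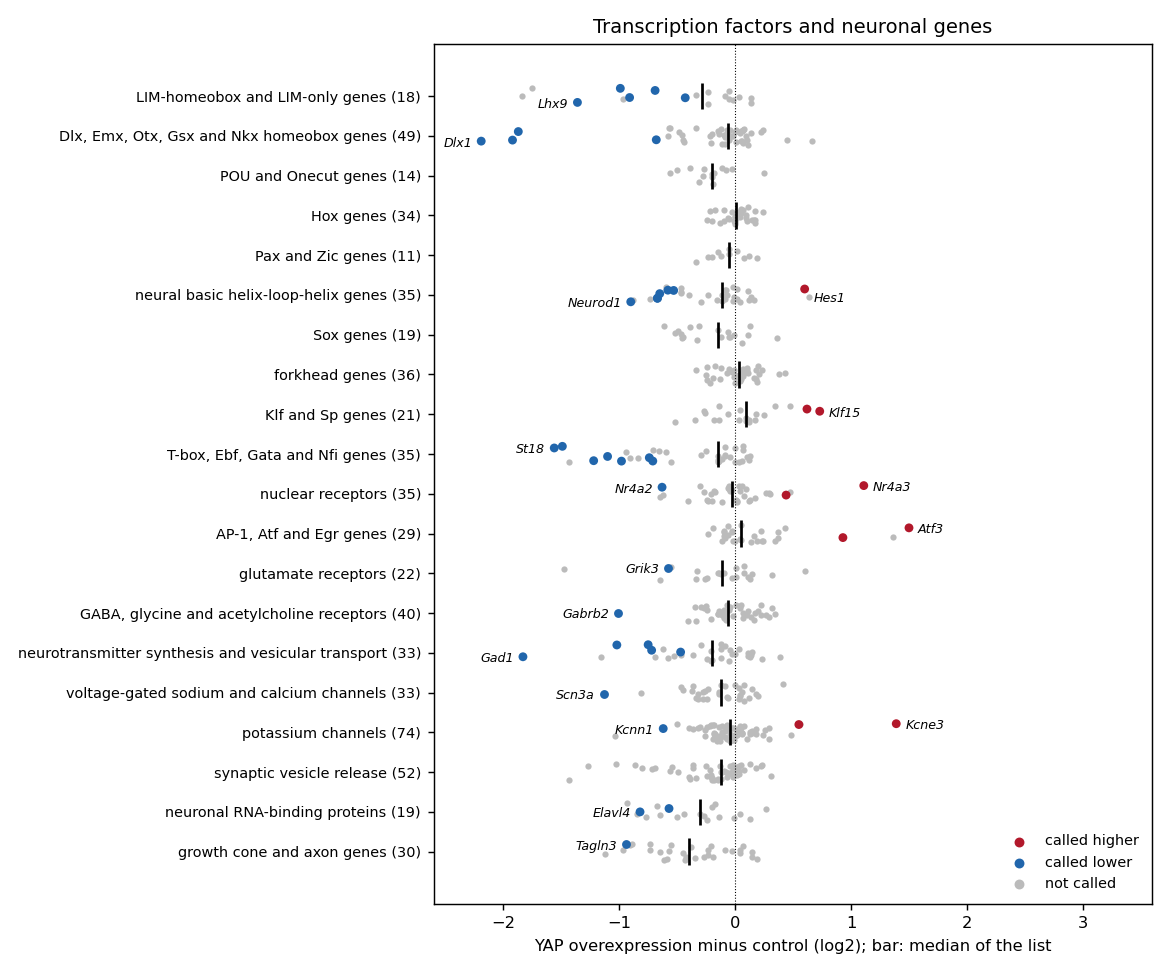
Log2 difference of YAP overexpression minus control for each member of lists of transcription factors and neuronal genes, with the number of members in brackets and the list's median as a bar. Falls reach -2.19 (Dlx1) and -1.83 (Gad1), the growth cone list has the lowest median of the lists drawn (-0.4), and Hes1 (0.60) is the only called rise among the neural bHLH genes.

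Some glucose and hypoxia genes rose. Of 26 genes of glucose uptake and glycolysis, 4 rose and none fell, with a median of 0.28, and 13 were higher against 1 lower at an unadjusted p under 0.05. The neuronal-type glucose transporter Slc2a3 read 10.30, 10.16 and 9.98 in controls and 12.08, 11.69 and 11.89 with YAP, a 3.34-fold rise (log2 1.74, SE 0.13, adjusted p = 0.00106). Its probe sets disagreed, from -0.18 to 1.83, and with probe sets marked as matching several transcripts left out its difference was 0.04 (adjusted p = 0.901). Hk2, the hexokinase of growing tissue, rose by 0.86, Pdk1, which keeps pyruvate out of mitochondria, by 0.72, and Pfkl by 0.54. Slc2a1 differed by 0.43 and was not called (adjusted p = 0.0804). Of 24 other hypoxia-inducible genes, Bnip3, Ak4, Egln3 and Ero1a rose by 0.91, 0.90, 0.87 and 0.55, and the median was 0.25. Erythroid markers had no called member of 10, and their summed log2 intensity was 16.15 to 16.22 in controls and 15.97 to 16.1 with YAP, which do not overlap. The part of blood content in the hypoxia genes was not tested. Slc2a3 and Egln3 were stable to leaving out an array, and the others were not (adjusted p of up to 0.148, for Pfkl).

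All calls among genes of lipid and amino acid synthesis were rises. Shares called were 3.85% of fatty acid, 4.76% of cholesterol and 14.8% of amino acid and ATF4 genes, against 2.19% of all genes. Scd1, the desaturase that makes monounsaturated fatty acids, read 9.88, 9.89 and 9.64 in controls and 11.09, 10.59 and 10.88 with YAP (log2 1.05, SE 0.14, adjusted p = 0.0119), and was the only called gene of 26 fatty acid genes. Of 21 cholesterol genes only Idi1 was called (0.53, adjusted p = 0.0498), but 20 had a positive difference, 11 passed an unadjusted p under 0.05, and the median was 0.26. Among 27 genes of amino acid synthesis and the ATF4 response, 24 had a positive difference, with a median of 0.23, and 4 rose. These were Atf3, Stc2 (0.88), the asparagine synthetase Asns (0.70) and the mitochondrial serine enzyme Shmt2 (0.44). The 89 oxidative phosphorylation genes had a median of -0.01 and no call (3 higher and 0 lower unadjusted).

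Transport and metal handling held large single changes. Besides Steap1, the zinc transporter Slc39a12 rose by 1.22, and the iron exporter Slc40a1 and Slc39a3 fell by 0.70 and 0.62, out of 44 metal genes. Of 292 SLC transporters, 3 rose and 4 fell with a median of 0.01, a share near that of all genes. Slc1a5, a glutamine transporter, rose by 0.62, and Slc10a4, found in cholinergic and monoaminergic neurons, fell by 0.86. Among 18 apolipoproteins and lipid carriers Clu alone was called. Folr1, a folate receptor of neuroepithelium and choroid plexus, read 6.83, 6.80 and 6.68 in controls and 8.34, 8.33 and 8.13 with YAP (log2 1.5, SE 0.09, adjusted p = 0.00065). It and Bmp6 were the only calls among 15 choroid plexus and roof plate genes. The group means of Ttr, Kcnj13, Lmx1a and Kl of that list were below 6 in both groups, and its summed log2 intensity was 12.37 to 12.6 in controls and 12.47 to 12.63 with YAP. Atf3, Slc2a3, Folr1, Bmp6, Stc2, Steap1 and Clu were stable, and the other calls in lipid, amino acid and transport genes were lost without at least 1 array (adjusted p of up to 0.151, for Idi1).

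Housekeeping families had medians near that of all genes and few calls. Cytosolic ribosomal proteins had a median of 0.01 and no call among 71 (2 higher and 0 lower unadjusted). No call was made among 16 aminoacyl-tRNA synthetases (3 and 0), 42 proteasome subunits (1 and 1), 60 splicing factors (0 and 4), 26 genes of the unfolded protein response and ER folding (median 0.12, 8 and 1) or 49 replication genes (median 0.08, 1 and 0). Mitochondrial ribosomal proteins had 2 rises of 73, Mrps18b (0.47) and Mrpl54 (0.43), with a median of 0.09 and 59 positive differences. Eif4ebp1, which restrains cap-dependent translation, rose by 1.06 and Eif1a by 0.58 among 52 translation factors. Hspa4l and Dnajc21 rose by 0.75 and 0.43 among 74 chaperones.

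Cell cycle calls were in single regulators. Ccnd3, a G1 cyclin, read 9.68, 9.66 and 9.60 in controls and 10.59, 10.51 and 10.62 with YAP (log2 0.93, SE 0.08, adjusted p = 0.00221). A second probe set of Ccnd3 gave 0.07. The Ccnd3 partner Cdk6 rose by 0.87 and Cdk7 by 0.75. The Cdk inhibitor Cdkn2c, Cdk19 and Ccng2 fell by 0.67, 0.68 and 0.60. The calls made up 10.5% of 57 cyclins, Cdks and Cdk inhibitors, against 2.19% of all genes. Nek6 rose by 0.73, the only call among 72 mitotic genes (median -0.01). Pcgf5, a polycomb subunit, rose by 0.80, and Hdac9, Tet2 and Hdac6 fell by 0.72, 0.58 and 0.39, out of 91 chromatin genes of which 19 were lower and 3 higher unadjusted. Of 29 p53 target genes only Btg2 was called, lower. Cdkn1a and Ccng1, 2 of that list named after their values were seen, differed by 0.78 and 0.83 and were not called (adjusted p = 0.224 and 0.15). Bcl2, which blocks apoptosis, rose by 0.62, the only call among 37 Bcl2 family and caspase genes, and Gstm1 by 0.43 among 47 glutathione genes. Ccnd3 and Pcgf5 were stable, and the other calls among these and the translation and chaperone genes were lost without at least 1 array (adjusted p of up to 0.146, for Hdac6).

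**Figure D5:**
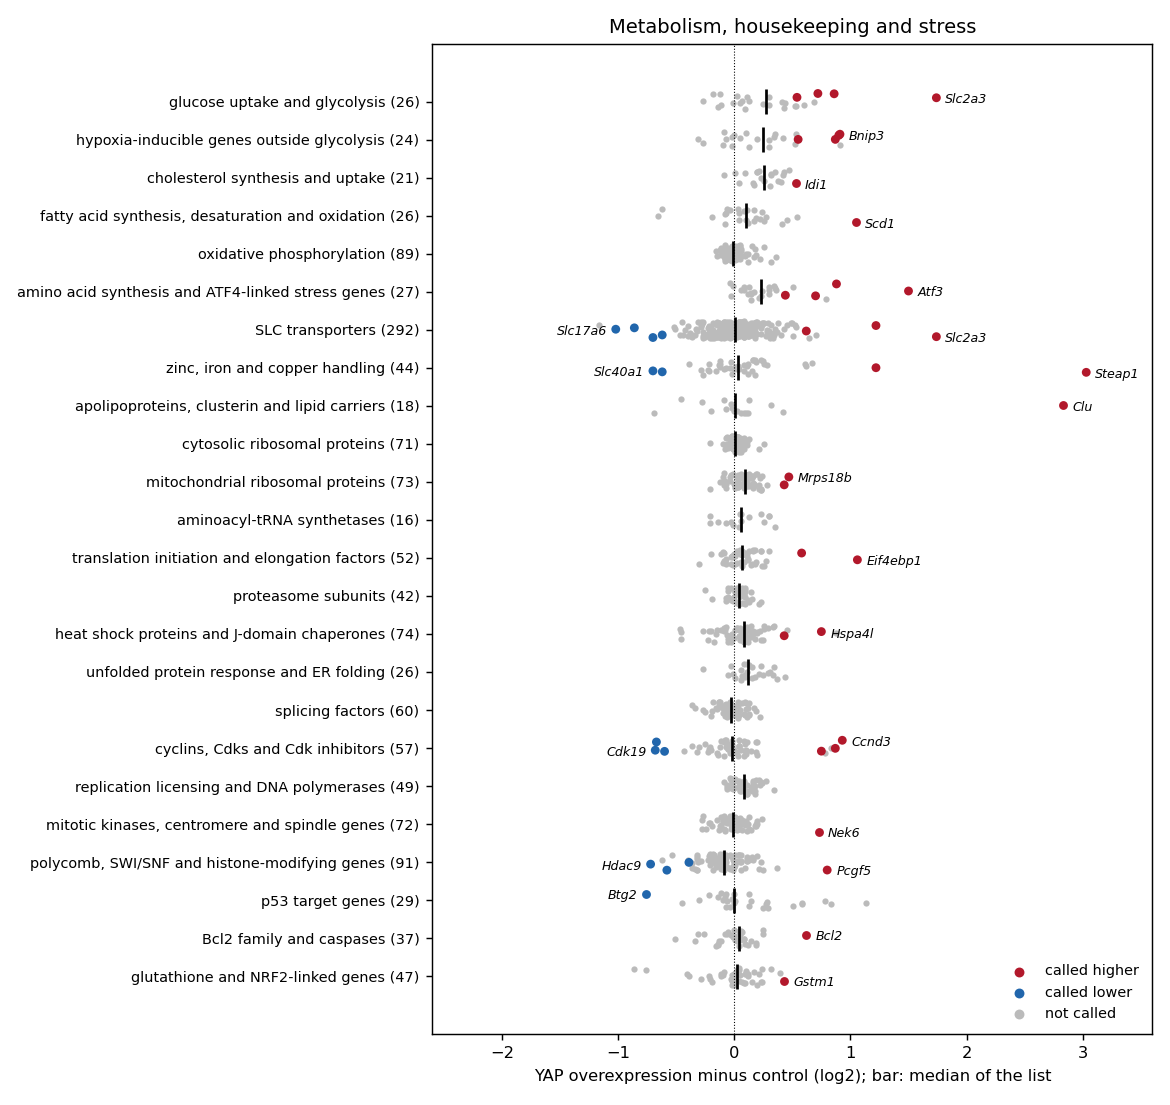
Log2 difference of YAP overexpression minus control for each member of lists of metabolic, housekeeping and stress genes, with the number of members in brackets and the list's median as a bar. Medians are highest for glycolysis (0.28), cholesterol (0.26), hypoxia (0.25) and amino acid synthesis (0.23), and members of the ribosomal, proteasome and oxidative phosphorylation lists lie close to 0.

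Membrane and trafficking families added few calls. Anxa5, a phospholipid-binding annexin, read 10.19, 10.25 and 9.99 in controls and 10.98, 10.91 and 10.92 with YAP (log2 0.79, SE 0.09, adjusted p = 0.00793), the only call among 25 annexins and S100 genes. The tetraspanin Cd151 and Tmem47 rose by 0.51 and 0.68 among 32, Rab15 by 0.97 among 55 Rab genes, and Car14 rose by 0.77 and Aldh1l2 fell by 0.82 among 100 carbonic anhydrases, aldehyde dehydrogenases and P450 genes. The shares called in the last 2 lists, 1.82% and 2%, were near the 2.19% of all genes. Those of annexins and S100 genes (4%) and of the tetraspanin list (6.25%) were higher. None of 46 aquaporin, chloride channel and sodium pump genes was called (3 higher and 5 lower unadjusted). Anxa5 and Rab15 were stable, and the others were not (adjusted p of up to 0.152, for Cd151). The remaining cell type lists showed no call among 13 endothelial (0 higher, 2 lower unadjusted), 12 macrophage (0 and 0) and 8 neural crest genes (0 and 3). In the others, Lhx2 alone was called among 10 retina and eye genes (summed log2 intensity 11.82 to 12.08 in controls and 11.38 to 11.4 with YAP), Gbx2 (-0.68) alone among the hindbrain genes, and Dlx2, Lhx2 and Emx2 fell among 12 regional forebrain and midbrain genes.

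Large changes also fell on genes outside every list, which held 217 of the 375 calls. Trim71 and Lin28a, RNA regulators of early embryonic tissue that are normally switched off as the neural tube matures, both rose. Trim71 read 6.23, 5.86 and 5.55 in controls and 7.48, 7.38 and 7.84 with YAP (log2 1.69, SE 0.18, adjusted p = 0.00658). Lin28a read 5.83, 5.87 and 5.47 against 7.26, 6.73 and 8.13 (log2 1.65, SE 0.31, adjusted p = 0.0392), and it varied most within the YAP group. Arrdc4, an alpha-arrestin regulated by glucose-sensing factors, fell from 7.48, 7.64 and 7.65 to 6.35, 6.57 and 6.37 (log2 -1.16, SE 0.10, adjusted p = 0.00207). Hopx, a homeodomain-only protein, fell from 8.21, 8.29 and 8.60 to 7.22, 7.13 and 7.47 (log2 -1.09, SE 0.13, adjusted p = 0.00849). Dmrta1, a cortical progenitor factor, fell by 1.25. The remaining large falls were Nol4 (1.29 lower), Apc2 (1.27), Hecw1 (1.13) and the little-described transcripts E130114P18Rik (1.62), Gm17750 (1.42) and AW047730 (1.17). Trim71, Arrdc4 and Hopx were stable, while Lin28a (adjusted p up to 0.145) and the other falls (up to 0.149, for Nol4) were lost without at least 1 array. Probe sets disagreed for several of these genes. Those of Arrdc4 gave -1.16 and 0.13, those of Lin28a 1.65 and 0.29, and those of Nol4 -1.29 and -0.06. The probe sets of Apc2 ran from -1.27 to -0.10 and those of Hecw1 from -1.13 to 0.06.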

How the data were processed

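RNA of 6 samples was measured on mouse expression arrays, 3 from YAP overexpression and 3 from control embryos. The deposited values are log2 intensities per probe set, to 2 decimals. Per the submitters' processing notes, Partek 6.5, Affymetrix Expression Console 1.1 and RMA were used, with no role or order given, and the build is not given in the sources used here. Of 45037 probe sets, 28898 had a single gene symbol in the platform table, 551 had several, and 28689 were updated through Entrez to RefSeq symbols (GRCm38.p6). Keeping the probe set with the highest mean left 17097 genes, 7180 of them with several probe sets.

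A model with both group means was fitted to these 6 arrays with limma 3.58.1 in R 4.3.3 (lmFit and eBayes, 4 residual and 4.09 prior degrees of freedom), with Benjamini-Hochberg adjustment over all genes. The pipeline was tested on simulated data. Genes and 96 lists were chosen with earlier results of these data known. Genes named are the Hippo members, the 20 largest rises and falls with groups that do not overlap, and each list's called members (the 3 highest and 3 lowest where over 6), with uncalled members of high level as examples. The results of 1 list and 1 further family are not reported here. Other uncalled genes, and families in the closing section, were picked after their values were seen. Alternatives were other normalizations, filters, probe-set rules, a fit to all 12 arrays, an intensity trend, array weights, a replicate block and leaving out each array.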

Additional observations from a re-analysis of the deposited data

Results flagged for a closer look

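Probe sets with no single gene symbol were outside the comparison of genes. Of 16139 such probe sets, 79 were higher and 118 were lower with YAP at an adjusted p under 0.05 in a limma fit over all 45037 probe sets, of which 648 passed in all. Their log2 differences ran from -1.86 to 3.06, a range close to that of the named genes. Which transcripts they measure was not analysed here.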

How the results depend on the processing

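None of the named calls, 174 or as many of them as an alternative could test, changed direction under any alternative that was run. Against 375 calls (179 higher, 196 lower), the fit to all 12 arrays gave 1071 (457 higher, 614 lower), with 172 of the 174 named calls kept, and an intensity trend gave 774 (333 and 441). Quantile normalization gave 384 and centring on the array medians 455 (267 and 188). A filter at a mean of 6 gave 529 and left out 15 of the 174 named calls as too dim. The mean of all probe sets gave 316 (40 of the 174 named calls lost). Leaving out probe sets marked as matching several transcripts gave 345, which lost 8 named calls and moved Pkp2 to 0.14. Leaving out 1 array gave 82 to 483 calls, 56 to 165 higher and 26 to 318 lower, and 35 to 69 lists with a called member against 69; fewer samples were tested. The residual correlations of same-numbered arrays were 0.0949, -0.195 and -0.201. Residuals sum to 0 within a group, so these values cannot decide whether equal replicate numbers mark pairs. With the replicate block there were 104 calls (76 higher, 28 lower), with 108 of the 174 named calls lost, and 42 lists with a called member. The best match of each YAP array was control 1 for replicate 1 (0.0949), control 3 for replicate 2 (0.172) and control 2 for replicate 3 (0.301). The last match is between the arrays with high Xist.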

Other observations

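Some small families, picked after their values were seen, held several changed members and are given as values only. Of 7 zyxin and Ajuba family LIM proteins, which sit at focal adhesions and junctions, Ajuba, Trip6 (0.96) and Wtip rose, and Zyx differed by 0.30 without a call. Of 5 nectins and poliovirus receptor genes, Nectin2 and Pvr (0.61) rose. Of 15 non-receptor tyrosine phosphatases, Ptpn14 and its closest relative Ptpn21 (0.77) rose and no other was called. Of 4 Steap genes only Steap1 was called, and Steap2 differed by 0.67 (adjusted p = 0.0705).

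All 5 genes of a group of early embryonic RNA and chromatin regulators had positive differences, from 0.22 for Igf2bp3 to 1.69 for Trim71, but only Trim71 and Lin28a were called. In the other direction, all 5 Ypel genes had negative differences, from -0.23 for Ypel1 to -0.75 for Ypel2, with Ypel2 and Ypel3 called. Of 6 Btg and Tob genes, which restrain proliferation, Btg2 and Btg1 (-0.53) fell, and Btg3 differed by 0.38 without a call. All 6 alpha-arrestins had negative differences. Arrdc4 was called, and Txnip, which blocks glucose uptake, differed by -0.76 (adjusted p = 0.0944). Of 17 Notch genes, the glycosyltransferase Mfng (-1.0), the ligands Dll3 (-0.60) and Dll1 (-0.58) and the feedback gene Nrarp (-0.52) fell. Trip6, Ptpn21 and Mfng kept their calls whichever array was left out, and Pvr, Ypel2, Ypel3, Btg1, Btg2, Dll3, Dll1 and Nrarp did not (adjusted p of up to 0.155, for Dll3).

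Further stable calls outside the lists were the kinase Nuak1 (1.21), the apical actin regulator Shroom3 (0.98), the MHC class I gene H2-K1 (0.93) and the actin-bundling Palld (0.73) among the rises, and the somatostatin receptor Sstr2 (-1.01), Plpp3 (-0.66) and the polysialyltransferase St8sia4 (-0.73) among the falls. These too were picked after their values were seen.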
